A study of Mus musculus with 8 samples.

Results

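Sphingolipids are membrane lipids built on ceramide. Serine palmitoyltransferase starts ceramide synthesis, sphingomyelin synthases and glucosylceramide synthase convert ceramide into sphingomyelin and glucosylceramide, and sphingomyelinases release ceramide again. Sphingosine, freed from ceramide, is phosphorylated by sphingosine kinases to sphingosine 1-phosphate (S1P), a signal that acts through G protein-coupled receptors on endothelium, smooth muscle and other cells. In the rodent uterus this pathway is known for its activity in stroma and in new vessels around implantation.

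The 10 genes described here are the ceramide-forming and ceramide-converting enzymes Sptlc2, Ugcg, Sgms1, Sgms2 and Smpd1, the kinases Sphk1 and Sphk2, and the receptors S1pr1, S1pr2 and S1pr3. They are 10 of the 23420 gene symbols in the count tables, picked by symbol from the pathway. They were chosen on their place in the pathway with the CPM of the libraries labelled Erbb3d/d against Erbb3f/f already in view, so their values in that contrast are given as a description, without p-values, and the calls counted further on support nothing about them. All 10 passed the filter on low counts.

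Polyadenylated RNA of mouse uterine stromal cells was sequenced in 8 libraries taken at day 3, 4 labelled Erbb3f/f and 4 labelled Erbb3d/d. In mouse genetics f usually stands for a floxed allele and d for its Cre-deleted form. The labels name no Cre line, no promoter or cell type that drives one, no age and no treatment, and do not say from which event the day is counted or whether a library is 1 animal or a pool. Reads in genes ran from 8578575 to 12854367 per library. Nothing in the labels says how far replicates were handled apart, so a p-value measures the spread between these libraries, which may be technical.

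Erbb3, the targeted receptor gene, does not follow the labels: its mean was 9.64 ± 2.24 CPM (SD, n = 4) in the libraries labelled Erbb3f/f and 13.9 ± 4.56 CPM (SD, n = 4) in those labelled Erbb3d/d. These counts cover all exons together, so the loss of some exons would not show by itself. Every direction given here is therefore that of the labels. CPM is the read count scaled to each library's TMM-adjusted total of reads in genes, and a log2 fold change is Erbb3d/d over Erbb3f/f.

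Promoter windows of RefSeq genes on GRCm38.p6, from 250 bases before to 50 bases after a start, were found for 9 of the 10 genes, with 22 windows in all. Where a gene had several, the window with most GENCODE transcript starts within 100 bases was taken. Sgms1 and Sgms2 are shown because their normalised counts differed in opposite directions between the labels. Capitals mark the GC box GGGCGG on either strand, the cAMP response element TGACGTCA, the TATA motif TATAAA and the AP-1 motif TGANTCA. These 4 motifs were picked after the sequences had been seen. The Sgms1 window lies at chr19:32388463-32388762 on the minus strand and the Sgms2 window at chr3:131344859-131345158 on the minus strand.
Sgms1: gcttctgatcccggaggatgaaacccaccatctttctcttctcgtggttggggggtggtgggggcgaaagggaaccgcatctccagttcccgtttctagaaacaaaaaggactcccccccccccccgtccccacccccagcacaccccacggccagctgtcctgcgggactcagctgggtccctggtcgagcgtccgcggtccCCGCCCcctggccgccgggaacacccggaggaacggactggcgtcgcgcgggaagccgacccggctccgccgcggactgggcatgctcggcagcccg
Sgms2: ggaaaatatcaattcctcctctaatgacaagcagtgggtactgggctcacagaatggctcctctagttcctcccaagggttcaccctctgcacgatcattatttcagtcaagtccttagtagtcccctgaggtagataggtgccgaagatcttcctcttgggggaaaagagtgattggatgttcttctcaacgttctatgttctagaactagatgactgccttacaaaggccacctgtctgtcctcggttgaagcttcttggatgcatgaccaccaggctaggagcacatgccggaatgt

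The Sgms1 window has a GC content of 69.3%, a CpG observed-to-expected ratio of 0.787 and 1 GC box, 47 bases before the start. That of Sgms2 has a GC content of 48.3% and a ratio of 0.285, and none of the 4 motifs is spelled in it. Sgms2 has 5 further windows, among them 1 at chr3:131490181-131490480 with a GC content of 77.7% and 4 GC boxes, so the window shown is only one of its annotated starts. Sgms1 has further windows too, among them 1 with a GC content of 77.3% and 2 GC boxes and 1 of 46.0% with no GC box. Over the 32851 windows of this length in the table, 35.7% hold a GC box. Among the 9 windows taken for the members, 7 hold one. These shares are not like for like, as the 9 are 1 chosen window per gene. The 32851 windows cover 27025 genes and include several starts of some genes.

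Sphk2 and S1pr2 are shown because each spells the full cAMP response element, which 1.79% of all 32851 windows hold. The Sphk2 window is chr7:45717953-45718252 on the minus strand, with the element 3 bases after the start. A further Sphk2 window, chr7:45715158-45715457, holds 3 GC boxes and no such element. The S1pr2 window is chr9:20976744-20977043 on the minus strand, with the element 181 bases before the start. A spelled motif describes the letters of the window and no binding was measured.
Sphk2: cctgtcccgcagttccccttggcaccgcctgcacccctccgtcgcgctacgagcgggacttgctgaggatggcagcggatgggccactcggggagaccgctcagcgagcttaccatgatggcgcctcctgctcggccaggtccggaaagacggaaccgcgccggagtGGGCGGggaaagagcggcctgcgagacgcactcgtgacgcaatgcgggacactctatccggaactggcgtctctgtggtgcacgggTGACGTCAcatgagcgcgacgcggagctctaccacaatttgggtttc
S1pr2: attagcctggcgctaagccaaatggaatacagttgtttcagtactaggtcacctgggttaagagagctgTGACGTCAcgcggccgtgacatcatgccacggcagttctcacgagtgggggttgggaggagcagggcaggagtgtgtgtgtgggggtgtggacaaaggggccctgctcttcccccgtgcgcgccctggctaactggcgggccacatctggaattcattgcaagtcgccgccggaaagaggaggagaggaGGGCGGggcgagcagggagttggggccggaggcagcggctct

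In the libraries labelled Erbb3f/f, Sphk2 had the highest level per length of the 10 genes and Sphk1 the lowest. The level per length is the mean CPM divided by the kilobases of merged exon (GENCODE vM21). It was 22.8 ± 1.08 CPM per kb (SD, n = 4) for Sphk2, then 18.7 ± 7.95 for Sgms2, 17.0 ± 3.04 for S1pr2, 15.3 ± 1.74 for Ugcg and 14.4 ± 2.05 for Smpd1 (SD, n = 4 each). Within these 5, each gene and the next in order overlap in their spread, while Sphk2 lay above Ugcg and Smpd1 in all 4 libraries. The levels of S1pr3 and S1pr1 followed at 12.3 ± 4.50 and 11.9 ± 0.727 CPM per kb (SD, n = 4 each), also within their spread of each other. A step beyond the spread separates S1pr1 from Sptlc2 at 5.45 ± 0.392 CPM per kb, and Sptlc2 from Sgms1 at 3.83 ± 0.214 CPM per kb (SD, n = 4 each). Sphk1, at 3.52 ± 0.653 CPM per kb (SD, n = 4), is not distinct from Sgms1. Sgms1 has 23 merged exons over 10546 bases, the union over its transcripts, which lowers its value per kb.

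Sptlc2 and Ugcg, the entry to ceramide and its exit to glycolipids, differed little between the labels. Sptlc2 encodes a catalytic subunit of serine palmitoyltransferase (chromosome 12, 87305058 to 87388355). Its normalised count was 42.5, 45.8, 40.8 and 47.8 CPM in Erbb3f/f replicates 1 to 4 and 36.5, 41.3, 47.9 and 46.1 CPM in Erbb3d/d replicates 1 to 4. The groups overlap almost wholly, with a log2 fold change of -0.04 (SE 0.11). Ugcg, which encodes glucosylceramide synthase (chromosome 4, 59189257 to 59222833), had 66.2, 85.8, 84.7 and 81.3 CPM in Erbb3f/f against 101, 76.2, 81.6 and 88.5 CPM in Erbb3d/d. Its lowest library is Erbb3f/f replicate 1 and its highest Erbb3d/d replicate 1, the others lie between 76.2 and 88.5 CPM, and the log2 fold change was 0.13 (SE 0.12).

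Of the 10 genes only the sphingomyelin synthase gene Sgms1 had genotypes that did not overlap, while those of Sgms2 did. Sgms1, whose product makes sphingomyelin in the Golgi, maps to the minus strand of chromosome 19, 32122727 to 32389714. It had 384, 396, 508 and 377 reads, or 37.4, 41.5, 39.9 and 42.6 CPM, in Erbb3f/f replicates 1 to 4. In Erbb3d/d replicates 1 to 4 it had 662, 468, 929 and 816 reads, or 65.1, 54.6, 73.2 and 71.6 CPM. All 4 Erbb3d/d libraries lie above all 4 Erbb3f/f libraries, with replicate 2 the lowest of the Erbb3d/d values. The means were 40.4 ± 2.26 and 66.1 ± 8.45 CPM (SD, n = 4 each), a 1.64-fold difference with a log2 fold change of 0.71 (SE 0.11). The Erbb3f/f values are tight: their SD on the log2 scale, 0.0813, exceeds that of only 11.3% of the 12409 genes with at least 5 CPM.

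Sgms2, whose product also makes sphingomyelin at the plasma membrane, maps to the minus strand of chromosome 3, 131318985 to 131491411. Its normalised count was 123, 184, 75.1 and 83.9 CPM in Erbb3f/f replicates 1 to 4 and 55.1, 92.6, 71.4 and 95.4 CPM in Erbb3d/d replicates 1 to 4. Erbb3f/f replicates 1 and 2 stand above every other library, while Erbb3f/f replicates 3 and 4 lie inside the Erbb3d/d range. The means were 117 ± 49.5 and 78.6 ± 19.0 CPM (SD, n = 4 each), and the log2 fold change was -0.57 (SE 0.29). Without Erbb3f/f replicate 2 it was -0.25. Within Erbb3f/f its SD of 0.585 on the log2 scale exceeds that of 95.7% of the same 12409 genes.

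**Figure D1:**
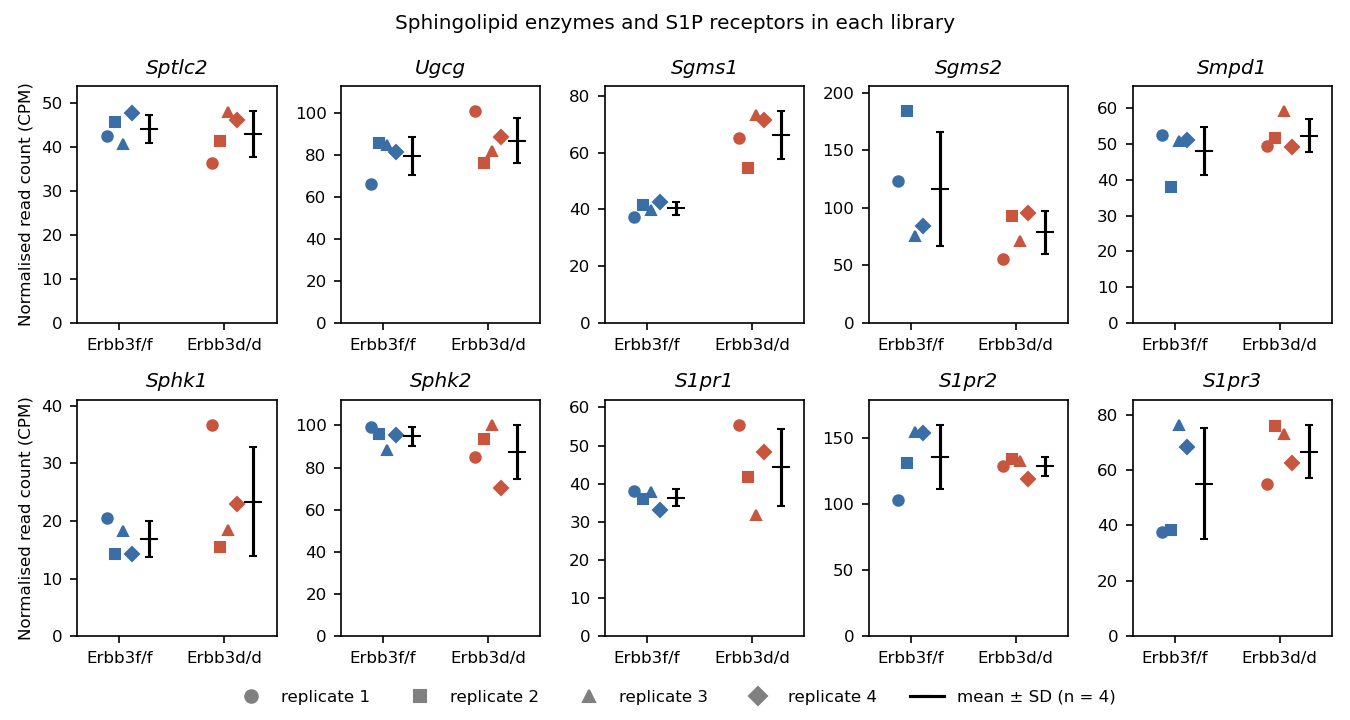
Normalised read counts (CPM, vertical axes from 0) of the 10 genes in each library, with Erbb3f/f in blue and Erbb3d/d in red, a marker shape per replicate and the mean ± SD (n = 4) as a black bar. Sgms1 is the only panel in which the genotypes do not overlap, with Erbb3f/f at 37.4 to 42.6 and Erbb3d/d at 54.6 to 73.2 CPM.

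The 2 synthases together show how their balance differed. Per length, Sgms1 made up 15.2, 11.8, 23.9 and 23.1% of the summed synthase level in Erbb3f/f replicates 1 to 4. In Erbb3d/d replicates 1 to 4 it made up 41.1, 25.8, 37.7 and 30.7%. The mean share was 18.5% ± 5.95 in Erbb3f/f against 33.8% ± 6.86 in Erbb3d/d (SD, n = 4 each), and the ranges do not overlap, although Erbb3f/f replicate 3 and Erbb3d/d replicate 2 lie close. Sgms2 remained the larger part in each of the 8 libraries. As the share uses the same counts as the fold changes, it adds a view of them and no separate support.

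Smpd1 encodes acid sphingomyelinase, the lysosomal enzyme that turns sphingomyelin back into ceramide (chromosome 7, 105554360 to 105558389). It had 52.5, 37.9, 50.8 and 51.1 CPM in Erbb3f/f against 49.4, 51.8, 59.2 and 49.1 CPM in Erbb3d/d. Apart from the low Erbb3f/f replicate 2 and the high Erbb3d/d replicate 3, 6 libraries lie between 49.1 and 52.5 CPM. The log2 fold change was 0.12 (SE 0.12).

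Of the kinases, Sphk1 varied among the Erbb3d/d libraries and Sphk2 was even across the Erbb3f/f libraries. Sphk1 encodes the mainly cytoplasmic kinase (chromosome 11, 116530925 to 116536674). It had 20.6, 14.2, 18.2 and 14.2 CPM in Erbb3f/f, from 126 to 232 reads, and 36.7, 15.5, 18.4 and 23.0 CPM in Erbb3d/d, from 133 to 373 reads. Erbb3d/d replicates 1 and 4 lie above the Erbb3f/f range and replicates 2 and 3 within it. The log2 fold change was 0.47 (SE 0.26), and 0.17 without Erbb3d/d replicate 1.

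Sphk2 encodes the kinase known from nucleus and mitochondria (chromosome 7, 45709467 to 45718002, minus strand). It had 99.3, 95.9, 88.5 and 95.3 CPM in Erbb3f/f against 85.2, 93.7, 100.2 and 70.4 CPM in Erbb3d/d. The groups overlap, Erbb3d/d replicate 4 is the lowest library, and the log2 fold change was -0.12 (SE 0.11). In GENCODE vM21 its exons share 539 bases with Dbp and 373 bases with Rpl18 on the other strand, 13.0% and 8.97% of its merged exon length. The libraries were not directional, so reads there cannot be told apart by strand. Dbp, a clock-controlled transcription factor gene, had 58.1 CPM in Erbb3f/f replicate 2 and 71.2 CPM in Erbb3d/d replicate 3 against 33.6 to 36.8 CPM in the other 6 libraries. Its part in the Sphk2 count was not tested. Per length, Sphk1 was 13.4% ± 2.17 of the summed kinase level in Erbb3f/f against 18.9% ± 6.99 in Erbb3d/d (SD, n = 4 each), with overlapping ranges.

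S1pr1, the receptor known from endothelium and lymphocytes, lies on chromosome 3 at 115710433 to 115715072. Its normalised count was 38.0, 36.1, 37.9 and 33.2 CPM in Erbb3f/f against 55.4, 41.6, 31.8 and 48.3 CPM in Erbb3d/d. In Erbb3d/d, 3 libraries lie above the Erbb3f/f range and replicate 3 lies below it, with a log2 fold change of 0.29 (SE 0.16). The SD of its log2 values was 0.0893 in Erbb3f/f against 0.341 in Erbb3d/d. Leaving out Erbb3d/d replicate 1 gave a log2 fold change of 0.16.

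S1pr2, a receptor known for limiting cell migration, lies on chromosome 9 at 20962361 to 20976781. It had 103, 131, 155 and 154 CPM in Erbb3f/f against 128, 134, 133 and 119 CPM in Erbb3d/d. The Erbb3d/d values fall inside the Erbb3f/f range, and the log2 fold change was -0.08 (SE 0.13).

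S1pr3, a receptor known from vascular smooth muscle and heart, lies on chromosome 13 at 51408639 to 51422797. It had 37.6, 38.2, 76.2 and 68.3 CPM in Erbb3f/f against 55.1, 76.1, 73.0 and 62.4 CPM in Erbb3d/d. Erbb3f/f replicates 1 and 2 are low and replicates 3 and 4 high, the reverse of Sgms2 in the same libraries. The log2 fold change was 0.27 (SE 0.24), with 0.14 without Erbb3f/f replicate 1 and 0.47 without Erbb3f/f replicate 3. The SD within Erbb3f/f, 0.538 on the log2 scale, exceeds that of 94.6% of the 12409 genes.

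Per length, S1pr2 was the largest of the 3 receptors in every Erbb3f/f library, while in Erbb3d/d the largest differed between libraries. In Erbb3f/f, S1pr2 had a mean share of 41.2%, S1pr1 29.6% ± 6.01 and S1pr3 29.2% ± 5.95 of their summed level, and in Erbb3d/d S1pr2 was 35.4% ± 2.15 and S1pr1 31.8% ± 6.70 (SD, n = 4 each), with S1pr3 between 26.5 and 37.6%. The S1pr2 share reached from 38.3 to 44.5% in Erbb3f/f and from 33.3 to 38.3% in Erbb3d/d, so that the ranges overlap only at Erbb3f/f replicate 1 and Erbb3d/d replicate 3.

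**Figure D2:**
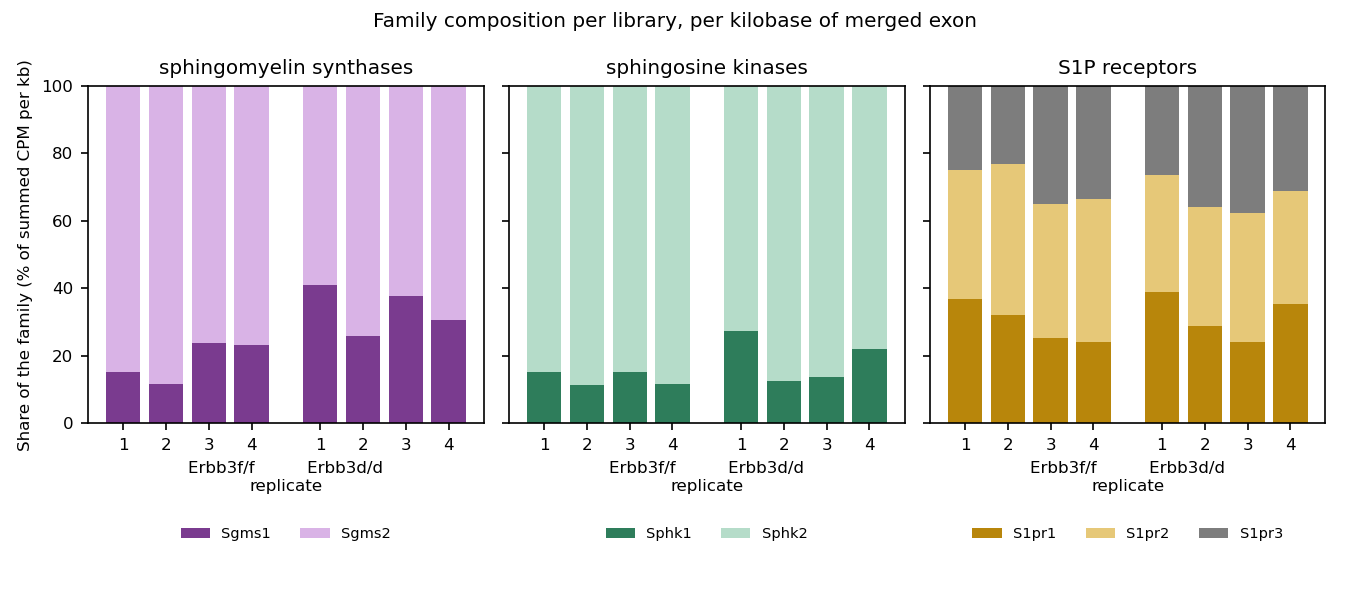
Share of each family's summed CPM per kb (vertical axis, %) taken by each gene, with 1 bar per library, Erbb3f/f replicates 1 to 4 on the left and Erbb3d/d replicates 1 to 4 on the right. The Sgms1 share lies between 11.8 and 23.9% in Erbb3f/f and between 25.8 and 41.1% in Erbb3d/d, while the Sphk1 shares of the genotypes overlap.

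The members' values stand beside those of all tested genes as follows. With edgeR's quasi-likelihood test and Benjamini-Hochberg adjustment 0 of 14598 genes (0%) passed an adjusted p of 0.05, and 1695 (11.6%) had an unadjusted p under 0.05. DESeq2 called 258 of 15946 genes (1.62%), with 1 member, Sgms1, among them. Without Erbb3d/d replicate 2, edgeR called 259 of 14774 genes (1.75%), with Sgms1 as the 1 member. With any other library left out, it called 0 genes. The genotypes did not overlap for 1 of 10 members, higher in Erbb3d/d, and for 736 of 14598 genes (5.04%), of which 2.56% of all genes were higher and 2.48% lower. As the members were chosen with this contrast in view, nothing is read from these counts. Of the 10 members 6 were higher and 4 lower in Erbb3d/d, where 48.0% of all tested genes were higher. Their median log2 fold change was 0.12, against -0.01 over all tested genes.

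The genes nearest to Sgms1 and Sgms2 in pattern were sought among 12461 tested genes with a mean of at least 5 CPM, by Pearson's r of log2 CPM over the 8 libraries. These are descriptions over libraries that share the 2 labels and have no p. Nearest to Sgms1 were Optn, an autophagy receptor gene (r = 0.98, Spearman rank correlation = 0.81), Gas2l3 (r = 0.97, rank correlation = 0.98) and the transcription factor gene Mycn (r = 0.97, rank correlation = 0.95). Mycn had 4.48, 5.24, 6.13 and 10.3 CPM in Erbb3f/f against 23.2, 14.1, 58.0 and 63.6 CPM in Erbb3d/d, and as for Sgms1 its lowest Erbb3d/d library was replicate 2. Nearest to Sgms2 were Psip1 (r = 0.99, rank correlation = 0.98), the retinol dehydrogenase gene Rdh1 (r = 0.99, rank correlation = 0.98) and Pof1b (r = 0.98, rank correlation = 0.86). Rdh1 had 15.6, 24.2, 7.70 and 9.84 CPM in Erbb3f/f against 5.21, 11.2, 6.07 and 10.7 CPM in Erbb3d/d, so that Erbb3f/f replicates 1 and 2 stand apart as they do for Sgms2.

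The other genes of sphingolipid and S1P metabolism were 58 genes listed from biochemistry, of which 52 were tested. As this list was made with earlier results of these data known, nothing is read from its counts, shares and p-values. In the same edgeR test 0 of 52 passed an adjusted p of 0.05 (smallest 0.242), and 11 had an unadjusted p under 0.05, 8 higher and 3 lower in Erbb3d/d, or 21.2% against 11.6% of all genes. The genotypes did not overlap for 5 of them (9.62%), against 5.04% of all genes. Over the 52 genes 36 were higher and 16 lower, with a median log2 fold change of 0.11 against -0.01 over all genes. Of all tested genes 48.0% were higher.

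Among genes of S1P breakdown, export and reception, 9 of 11 were tested. Of these, 3 had an unadjusted p under 0.05 (33.3%, against 11.6% of all genes), each higher in Erbb3d/d. Sgpp2, which encodes an S1P phosphatase of the endoplasmic reticulum, had 9.45, 8.59, 9.51 and 15.9 CPM in Erbb3f/f against 16.3, 18.8, 37.3 and 40.3 CPM in Erbb3d/d. The groups do not overlap, though Erbb3f/f replicate 4 and Erbb3d/d replicate 1 are close, and the log2 fold change was 1.38 (SE 0.33, adjusted p = 0.242 in edgeR). DESeq2 gave an adjusted p of 0.00452 for it. The lipid phosphate phosphatase genes listed under their older symbols Ppap2a and Ppap2c had log2 fold changes of 0.40 (SE 0.15) and 0.48 (SE 0.18), with overlapping groups. With the epithelial marker mean in the fit Ppap2c had 0.02 (SE 0.20). Chosen after their values were seen, their relative Ppap2b (log2 fold change -0.15, SE 0.16), the S1P lyase gene Sgpl1 (0.04, SE 0.11) and the exporter gene Spns2 (0.17, SE 0.18) had an unadjusted p above 0.05.

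Among ceramide synthesis genes 15 of 17 were tested. Of these 15, 3 had an unadjusted p under 0.05, against 11.6% of all genes. The reductase gene Kdsr had a log2 fold change of 0.25 (SE 0.10) and Ormdl1, which encodes a regulator of serine palmitoyltransferase, one of 0.45 (SE 0.20). That of Ormdl1 was 0.28 without Erbb3d/d replicate 4 and turned to -0.09 (SE 0.24) with the epithelial marker mean, described further on, in the fit. The ceramide transfer protein gene, listed as Col4a3bp, had 131 ± 7.94 CPM in Erbb3f/f against 112 ± 12.5 CPM (SD, n = 4 each) in Erbb3d/d, without overlap and with a log2 fold change of -0.23 (SE 0.10). Its product brings ceramide to the Golgi, where sphingomyelin is made. The ceramide synthase gene Cers3, at 4.39 ± 0.213 and 5.34 ± 0.712 CPM (SD, n = 4 each), did not overlap either, with a log2 fold change of 0.28 (SE 0.23).

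Among genes of sphingomyelin and ceramide breakdown 11 of 12 were tested. Of these, 3 had an unadjusted p under 0.05 (27.3%, against 11.6% of all genes). The ceramidase genes Asah2 and Asah1 had log2 fold changes of 0.39 (SE 0.14) and 0.24 (SE 0.10), and Smpdl3b, of the acid sphingomyelinase-like family, had -0.66 (SE 0.25). For Asah2 the Erbb3f/f values of 14.1 to 18.1 CPM lie below the Erbb3d/d values of 19.1 to 21.0 CPM. Among glycosphingolipid genes 17 of 18 were tested, and 2 had an unadjusted p under 0.05. Their share of 11.8% is near the 11.6% of all genes. B4galnt1, which encodes an enzyme of ganglioside synthesis, had 83.4 ± 15.8 CPM in Erbb3f/f against 60.7 ± 5.14 CPM (SD, n = 4 each) in Erbb3d/d, without overlap and with a log2 fold change of -0.46 (SE 0.13). Galc, which encodes the lysosomal galactosylceramidase, had one of 0.44 (SE 0.18). With the epithelial marker mean in the fit the log2 fold change was 0.15 (SE 0.24) for Galc and 0.07 (SE 0.15) for Asah1, and that of Col4a3bp was -0.11 (SE 0.15).

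**Figure D3:**
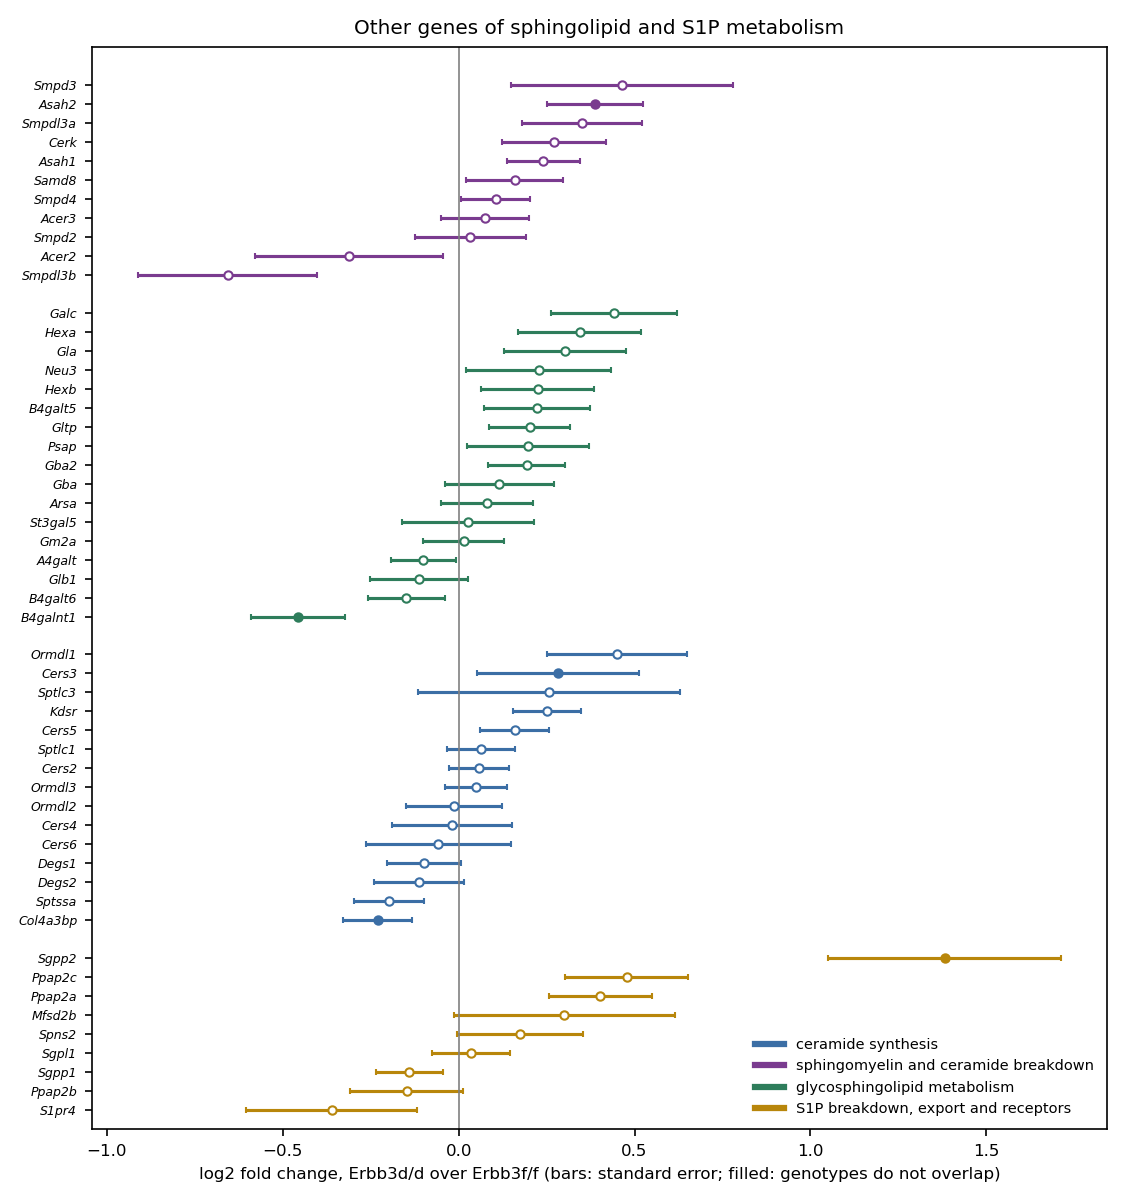
Log2 fold change of Erbb3d/d over Erbb3f/f (horizontal axis) with its standard error for the 52 tested other genes of the pathway, coloured by group and filled where the genotypes do not overlap. Sgpp2 lies farthest to the right at 1.38 and Smpdl3b farthest to the left at -0.66.

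Markers of other cells moved with some of these genes. In bulk samples fewer cells of a type and less RNA per cell cannot be told apart. All 12 stromal markers were detected, with a summed level of 12678 to 16050 CPM in Erbb3f/f against 11155 to 15042 CPM in Erbb3d/d. Epithelial markers summed to 1023 to 1700 CPM and 1577 to 2753 CPM, smooth muscle markers to 1855 to 3077 CPM and 2972 to 6220 CPM, endothelial markers to 259 to 535 CPM and 276 to 569 CPM, and immune markers to 1617 to 3458 CPM and 2192 to 2667 CPM. No marker of the 5 lists was at 0 in all libraries. The lists were made with earlier results of these data known, which limits what the p-values below can show. In Erbb3d/d, 12 of 14 epithelial, 11 of 12 smooth muscle, 11 of 12 endothelial, 7 of 12 immune and 4 of 12 stromal markers were higher. Over all tested genes 48.0% were higher. In two-sided exact permutation tests of the list means, p was 0.0571 for epithelial and for smooth muscle markers (0.143 after adjustment over 5 lists), 0.0857 for stromal (0.143), 0.429 for endothelial (0.536) and 0.83 for immune markers (0.83), where 0.0286 is the smallest p the design allows.

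**Figure D4:**
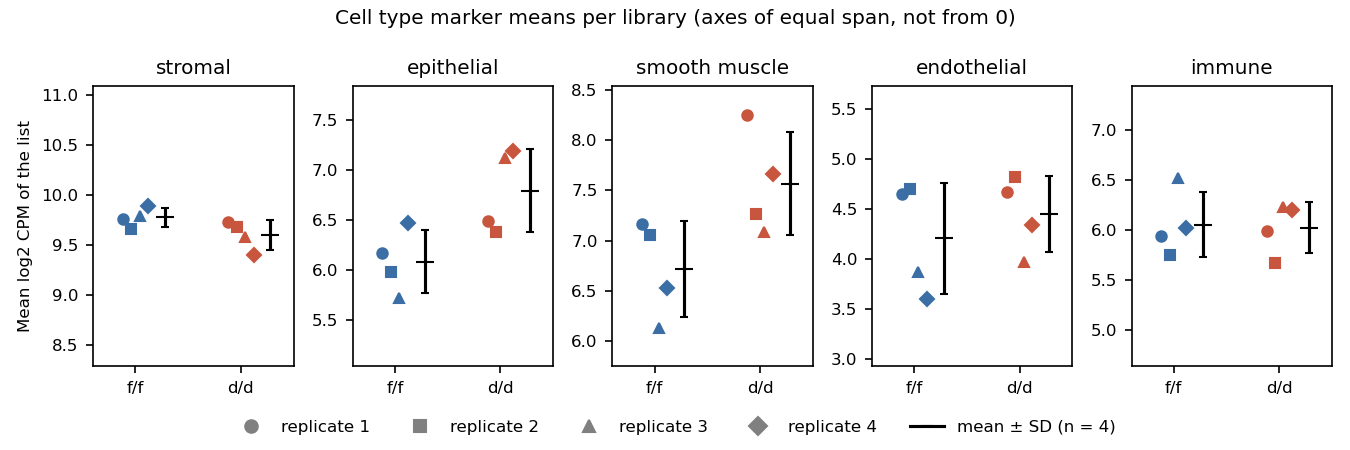
Mean log2 CPM of each marker list per library (vertical axes, 1 panel per list), with Erbb3f/f in blue, Erbb3d/d in red, a shape per replicate and the mean ± SD (n = 4) in black. The smooth muscle mean is highest in Erbb3d/d replicate 1 at 8.25, and the epithelial mean in Erbb3d/d replicates 3 and 4 at 7.12 and 7.19.

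The member nearest to the epithelial mean over the 8 libraries was Sgms1 (r = 0.86, rank correlation = 0.88, a description without p). Its Erbb3d/d replicates 3 and 4, at 73.2 and 71.6 CPM, are those with the highest epithelial means, 7.12 and 7.19 log2 CPM, and Erbb3d/d replicates 1 and 2 had 6.49 and 6.38. In Erbb3f/f replicates 1 to 4 the epithelial mean was 6.17, 5.98, 5.73 and 6.47 log2 CPM. Sgms1 had 37.4, 41.5, 39.9 and 42.6 CPM there. Sgms1 had a log2 fold change of 0.50 (SE 0.15) once the epithelial mean entered the fit, and Sptlc2 one of -0.27 (SE 0.15). Without it they were 0.71 and -0.04. Sgpp2 had r = 0.96 and a rank correlation of 0.86 with the epithelial mean, and its log2 fold change in that fit was 0.33 (SE 0.26).

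Sphk1 and S1pr1 were nearest to the smooth muscle mean (r = 0.74 and rank correlation = 0.71, r = 0.77 and rank correlation = 0.79). Both were highest in Erbb3d/d replicate 1, where that mean was 8.25 log2 CPM, and next in Erbb3d/d replicate 4, where it was 7.67. When that mean entered the fit their log2 fold changes were -0.06 (SE 0.31) and -0.02 (SE 0.20). S1pr3 had 0.93 (SE 0.20) in the same fit, against 0.27 without the covariate, while Sgms1 had 0.74 and S1pr2 0.15 (SE 0.16). The endothelial mean was 4.64, 4.70, 3.87 and 3.60 log2 CPM in Erbb3f/f replicates 1 to 4, while S1pr1 ran from 33.2 to 38.0 CPM there. Over all 8 libraries S1pr1 had r = 0.54 and a rank correlation of 0.50 with the endothelial mean, and a log2 fold change of 0.22 with that mean in the fit. Within Erbb3f/f, the endothelial and smooth muscle means were higher in replicates 1 and 2, where S1pr3 and S1pr2 were lower and Sgms2 higher. In Erbb3d/d replicates 1 to 4 the endothelial mean was 4.67, 4.82, 3.97 and 4.34 log2 CPM. The smooth muscle mean was 8.25, 7.27, 7.08 and 7.67 log2 CPM. In the same order S1pr3 had 55.1, 76.1, 73.0 and 62.4 CPM and S1pr2 128, 134, 133 and 119 CPM. Sgms2 had 55.1, 92.6, 71.4 and 95.4 CPM. The epithelial and smooth muscle means were themselves higher in Erbb3d/d, by 0.71 and 0.85 log2 CPM. These fits therefore cannot tell label and marker mean apart, and the part of other cells in these values was not tested.

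**Figure D5:**
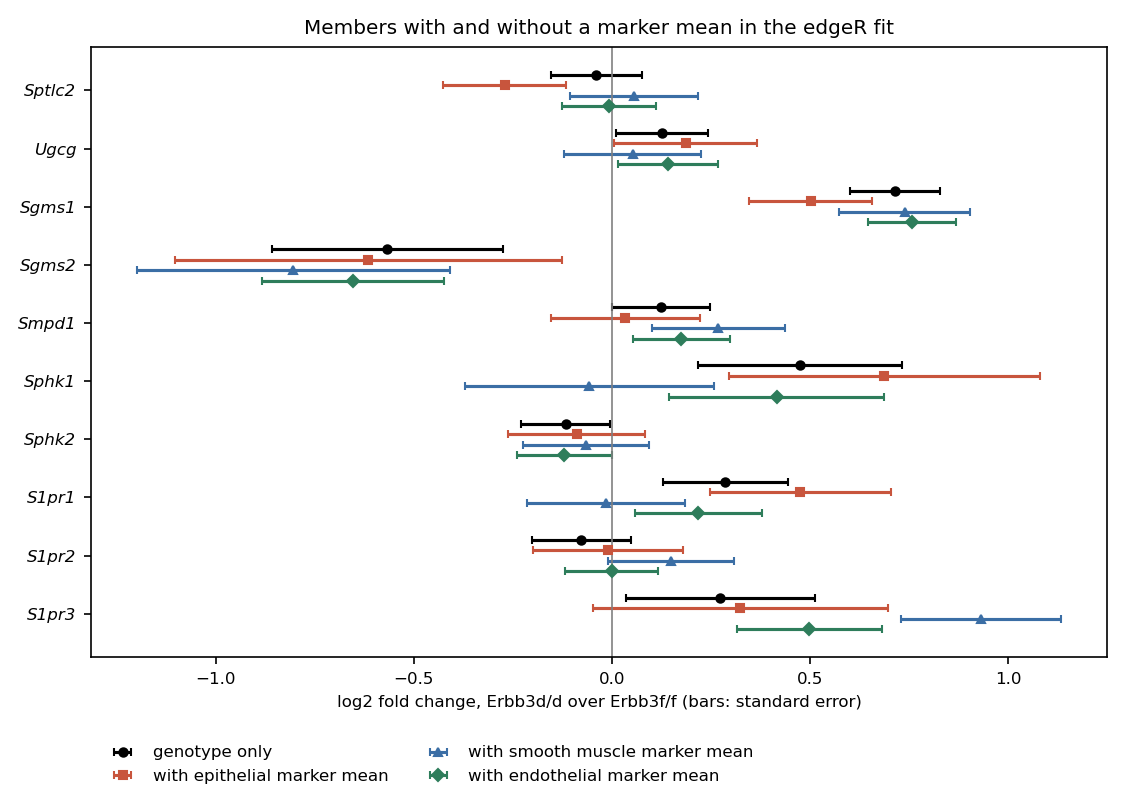
Log2 fold change of Erbb3d/d over Erbb3f/f (horizontal axis) with its standard error for each of the 10 genes, in the edgeR fit with the genotype alone (black) and with the epithelial (red), smooth muscle (blue) or endothelial (green) marker mean as a covariate. Sgms1 lies between 0.50 and 0.76 in the 4 fits, while Sphk1 and S1pr1 lie at -0.06 and -0.02 with the smooth muscle mean.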

How the data were processed

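Counts were analysed as the authors deposited them: 1 table per library with raw read counts for 23420 gene symbols. HISAT2, SAMtools, HTSeq and StringTie and the build GRCm38 are named in the submitters' processing notes, with no roles, versions or annotation. Each table's 5 closing lines name no gene and were kept out; reads in genes were 27.0% to 29.1% of all entries.

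Members and lists were chosen with earlier results of these data known. Genes were kept by filterByExpr, scaled by TMM and fitted in edgeR 4.0.16 (R 4.3.3; glmQLFit, robust, intercept and genotype, all 8 libraries), with Benjamini-Hochberg adjustment over 14598 genes at 0.05. SE is the log2 fold change over the root of F. Marker means are of log2 CPM (prior count 2) and were compared by exact permutation over 70 assignments. The method was tested on simulated data. Alternatives were DESeq2 1.42.0, RLE scaling, no filter, a replicate block, marker covariates and each library left out. Older symbols matched 5 listed genes.

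Named were all members, companions with an unadjusted p under 0.05 or no overlap (at most 15), and the 3 genes most like the members with the largest positive and negative fold change. Ppap2b, Sgpl1 and Spns2 were added after their values were seen. Positions and lengths are from GENCODE vM21 and promoters from RefSeq, both on GRCm38.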

Additional observations from a re-analysis of the deposited data

Results flagged for a closer look

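The 4 libraries of each genotype were searched for a value that stands apart, for the 10 members, the 12 other pathway genes named by the rule and the 5 marker means. Of these 54 sets 4 held one, where chance at 1 in 20 gives 2.7. Among the members, Smpd1 in Erbb3f/f replicate 2, at 37.9 CPM, lay below the nearest Erbb3f/f library at 50.8 CPM. Among the other pathway genes, Kdsr in Erbb3d/d replicate 3 had 45.1 CPM against 51.3 CPM in the nearest library, and Asah2 in the same library had 19.1 CPM against 20.8 CPM. Sgpp2 in Erbb3f/f replicate 4, at 15.9 CPM, lay above the nearest Erbb3f/f library at 9.51 CPM. That library also had the highest epithelial marker mean of Erbb3f/f, 6.47 log2 CPM, and the part of this in the value was not tested.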

How the results depend on the processing

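The count of genes called was 0 in edgeR and 258 with DESeq2. It was 204 with the endothelial marker mean as a covariate and 52 with the replicate number as a block. With 1 library left out it was 259 without Erbb3d/d replicate 2 and 0 without any other library. The cause was not tested. Among the other pathway genes DESeq2 called 1, Sgpp2, and the fit with the endothelial mean called 2, Sgpp2 and Galc. Leaving out 1 library gave 1 to 2 members without overlap, the second being S1pr1 without Erbb3d/d replicate 3, where 7.10% of tested genes did not overlap. The immune marker difference, -0.03, ran from -0.125 to 0.122 with 1 library left out (0.122 without Erbb3f/f replicate 3 and 0.0879 without Erbb3d/d replicate 2). Ormdl1 turned to -0.0908 with the epithelial mean. Of 150 values of the members' log2 fold changes under alternatives, 144 moved by less than the SD between replicates. The other 6 were 1 each for Sgms1, Sptlc2, Sphk1, S1pr1, S1pr2 and S1pr3. As this measure is wide for genes of large SD, Sgms2 counted as unmoved at -0.25 without Erbb3f/f replicate 2, against -0.57. Same-numbered replicates were not taken as pairs: their deviations correlated at 0.221, 0.159, 0.0959 and 0.145, of which the third is under the 0.1 asked of every pair. Erbb3f/f replicates 1, 2 and 3 correlated best with their own number and replicate 4 with Erbb3d/d replicate 3. With the block 0 members were called, and with the endothelial mean 1, Sgms1. The lowest count of any member was 126 reads, for Sphk1.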
